A study of Mus musculus with 8 samples.

Results

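The genes described here encode the enzymes and transporters of glycolysis, the proteins that pass pyruvate into mitochondria or turn it into lactate, and the hypoxia-inducible factor (HIF) pathway. They were taken from a list of 42 genes of these pathways, matched by symbol to the arrays, with the probe set of the highest mean value for each gene. Of the 42 genes, 39 were measured, among 29915 genes with a probe set of their own. Gpi1, Eno1 and Mpc2 had no probe set of their own in the table used and were not analysed here.

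The RNA came from long-term haematopoietic stem cells (LT-HSC), the bone marrow cells that can rebuild blood for life, and was measured on 8 Affymetrix whole-transcript arrays. The sort selected cells positive for cKit, Sca and CD150 and negative for lineage markers, Flk2 and CD48. The 4 groups were LT-HSC of wild-type (WT) mice at day 5 after total body irradiation with 2 Gy, WT non-irradiated LT-HSC, LT-HSC of CD169DTR/+ mice (called CD169-DTR here) at day 5 after 2 Gy, and CD169-DTR non-irradiated LT-HSC, with 2 arrays each. CD169DTR/+ mice carry 1 copy of the diphtheria toxin receptor under control of the gene of CD169 (Siglec1), a surface protein of some macrophages. Mice of all 4 groups, WT included, had received diphtheria toxin 72 h before the irradiation or the sham treatment, so that CD169+ macrophages were depleted in the CD169-DTR mice while no group was free of toxin. The age and sex of the mice, and whether an array held the cells of 1 mouse or of a pool, are not given in the sources used here. The design text states that the replicates came from 2 experiments.

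Glycolysis splits glucose into pyruvate in the cytosol. Lactate dehydrogenase then turns pyruvate into lactate, or pyruvate dehydrogenase feeds it into mitochondrial respiration, and pyruvate dehydrogenase kinases (PDK) hold that enzyme back. HIF is a pair of proteins, an alpha subunit that is destroyed when oxygen is plentiful and a stable partner, and it switches on many glycolysis genes by binding DNA at the core letters ACGTG or GCGTG. In mice, quiescent LT-HSC have been reported to rely on glycolysis and on Hif1a, and loss of Pdk2 and Pdk4 together has been reported to impair them.

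The promoters of 3 genes on which the results below turn are shown with the core ACGTG, on either strand, in capitals. Ankrd37 encodes an ankyrin-repeat protein known as a HIF target, and Ldha and Ldhb encode the M and H subunits of lactate dehydrogenase. The sequences are those of RefSeq for mouse build GRCm38.p6, run 5′ to 3′ on the strand of the gene, and cover 250 bases before the start site and 50 after it. They lie at chr8:45999801-46000100 on the minus strand for Ankrd37, at chr7:46845554-46845853 on the plus strand for Ldha (the first of its 2 listed starts), and at chr6:142507908-142508207 on the minus strand for Ldhb.
Ankrd37: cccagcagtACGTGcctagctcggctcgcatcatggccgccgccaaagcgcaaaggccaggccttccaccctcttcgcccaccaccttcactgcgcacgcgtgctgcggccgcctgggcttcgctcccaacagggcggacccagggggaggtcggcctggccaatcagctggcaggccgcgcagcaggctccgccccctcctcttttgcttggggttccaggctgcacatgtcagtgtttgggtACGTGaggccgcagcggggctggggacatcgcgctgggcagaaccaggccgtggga
Ldha: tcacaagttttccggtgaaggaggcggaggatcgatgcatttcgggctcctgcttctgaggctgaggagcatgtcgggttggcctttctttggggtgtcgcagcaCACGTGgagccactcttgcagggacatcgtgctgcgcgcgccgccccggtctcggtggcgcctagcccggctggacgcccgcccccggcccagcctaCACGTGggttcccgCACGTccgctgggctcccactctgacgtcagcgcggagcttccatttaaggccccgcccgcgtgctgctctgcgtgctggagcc
Ldhb: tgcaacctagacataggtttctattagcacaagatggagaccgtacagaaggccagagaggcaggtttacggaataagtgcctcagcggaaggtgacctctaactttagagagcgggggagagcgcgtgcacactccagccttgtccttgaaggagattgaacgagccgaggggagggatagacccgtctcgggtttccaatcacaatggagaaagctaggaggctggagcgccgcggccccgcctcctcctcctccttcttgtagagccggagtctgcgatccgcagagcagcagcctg
In the Ankrd37 promoter the core began at -241 and at -6 bases from the start site. The Ldha window held the palindrome CACGTG, which contains the core on both strands, at -145 and -48, and 1 further core at -34. The Ldhb window held no ACGTG and 1 GCGTG, while the Ankrd37 and Ldha windows held 2 GCGTG each.

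RefSeq promoters of the same length were listed for 36 of the 39 genes, 50 promoters in all. Slc2a3, Epas1 and Bnip3l were not listed. ACGTG was present on either strand in 50% of the 50 promoters, against 19.6% of all 32851 promoters. Without matches inside CACGTG, which other factors also bind, the shares were 44% and 13.6%. GCGTG was present in 56.0% of the promoters of these genes and in 32.4% of all promoters. By gene, 22 had ACGTG in at least 1 promoter and 14 had none. Windows of 1 gene can overlap, and the Aldoa windows that hold ACGTG share the same core, at -202 and -126 from their start sites. All promoters were not matched to these in base composition. These genes were listed as glycolysis and HIF pathway genes, so the shares are descriptions. A match describes these windows and is not evidence of binding.

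The arrays as a whole bore out the irradiation labels. Cdkn1a, the p53-induced inhibitor of the cell cycle, had log2 values of 13.06 and 13.41 in WT 2 Gy LT-HSC, against 7.86 and 8.39 in WT non-irradiated LT-HSC, and of 13.24 and 13.23 in CD169-DTR 2 Gy LT-HSC, against 9.79 and 9.34 in CD169-DTR non-irradiated LT-HSC. Kit was at 14.25 or above on all 8 arrays, while Cd48, a protein that the sort removes, lay between 10.98 and 13.47 and Flt3, which encodes Flk2, between 5.85 and 8.22. Siglec1 lay between 3.86 and 4.12, below the median probe set of every array, so it gives no check of the depletion in these cells. On a principal component analysis the arrays WT 2 Gy replicate 1 and CD169-DTR 2 Gy replicate 2 lay far from the rest. Signals of other blood cells differed between the groups, as the mean log2 value of marker lists shows. The 11 neutrophil and granulocyte-monocyte progenitor markers averaged 9.80 and 10.38 in WT 2 Gy LT-HSC, against 7.63 and 8.57 in WT non-irradiated LT-HSC. Of these 11 markers, 9 lay higher without overlap, beside 31.4% of all probe sets. In CD169-DTR LT-HSC they averaged 9.63 and 8.62 after 2 Gy and 9.06 and 9.65 without irradiation. The part that such signals have in the results below was not tested, and in RNA from sorted cells a change in the cells present cannot be told apart from a change in RNA per cell.

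Most of these genes were well measured. On every array 34 of the 39 were at or above the median of all probe sets, while Eno2, Slc16a3, Pdk4, Epas1 and Adm were below it on all 8. Adm, which encodes the vessel-widening peptide adrenomedullin, was below the 25th percentile of every array, so its values may hold little but background. Gapdh and Tpi1, enzymes of the middle of glycolysis, ranged over the arrays from 15.66 to 16.09 and from 14.46 to 15.17. Replicates of a group differed by a median of 0.15 to 0.22 log2 over these genes. They differed most for the aldolase gene Aldoc (by 1.12 in WT 2 Gy and 1.19 in WT non-irradiated LT-HSC), the HIF prolyl hydroxylase gene Egln1 (by 1.6 in CD169-DTR 2 Gy LT-HSC) and Pdha1 (by 0.89 in CD169-DTR non-irradiated LT-HSC). The heat map shows this spread, with Aldoc and Egln1 as the most uneven genes.

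**Figure D1:**
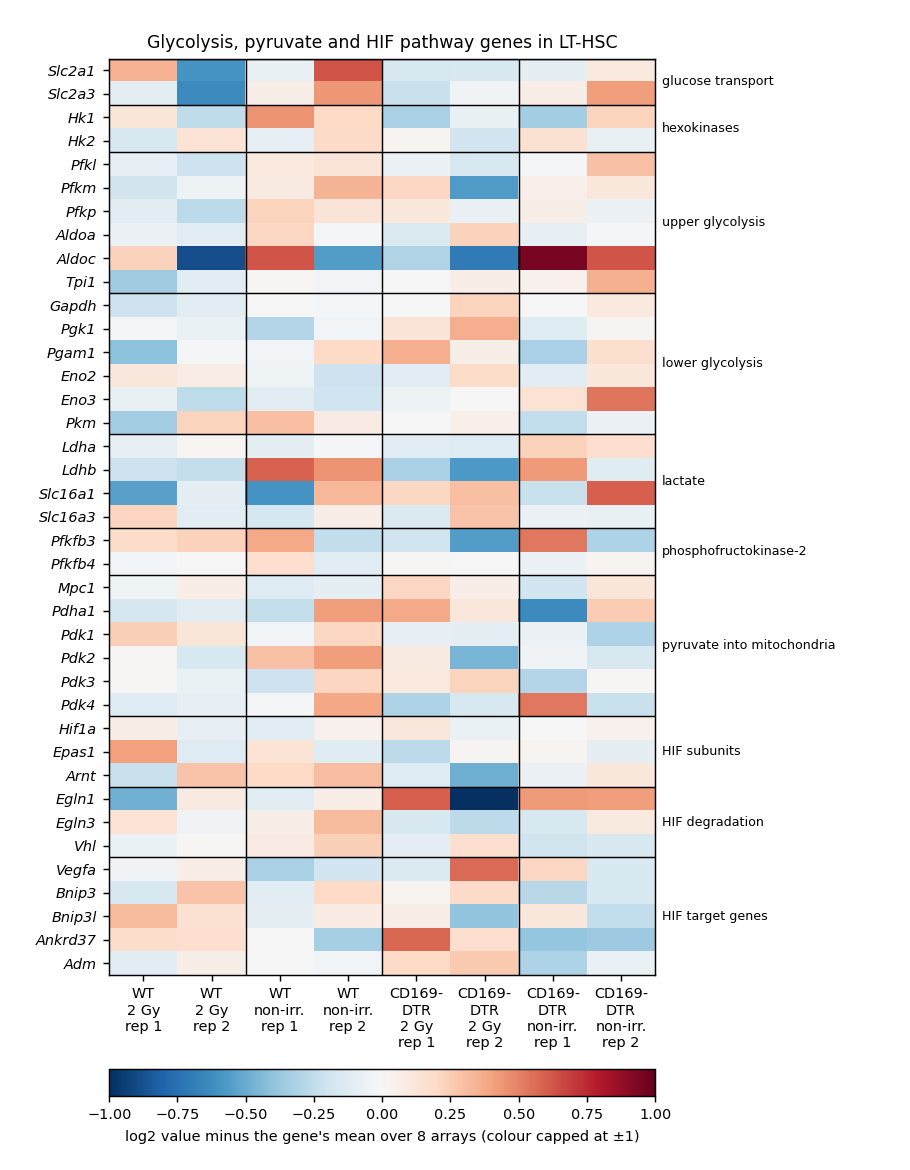
Heat map of the 39 genes (down the page, by role) on the 8 arrays (across), coloured by the log2 value minus the mean of the gene over the 8 arrays, capped at 1 in either direction. Ldhb is blue on all 4 irradiated arrays, Ankrd37 is red on all 4 of them, and Egln1 differs by 1.6 between the CD169-DTR 2 Gy replicates. Ldhb also lies below its mean on CD169-DTR non-irradiated replicate 2, at 10.91. Ankrd37 lies close to its mean on WT non-irradiated replicate 1, at 6.33.

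Irradiation was asked about first, in WT mice and in macrophage-depleted mice. No gene of the 39 passed an adjusted p under 0.05 in any of the 7 comparisons made with limma (Benjamini-Hochberg over 30294 probe sets). Over all probe sets 0.0099% passed for irradiation in WT LT-HSC and 0.0099% for the average over both genotypes, and 0 in the other 5 comparisons. The differences described below are therefore given as values with their spread, and an unadjusted p under 0.05 serves only to choose which genes are spelled out.

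Ldhb showed the lowest unadjusted p of these genes for irradiation averaged over both genotypes. Its log2 values were 10.82 and 10.79 in WT 2 Gy LT-HSC, against 11.62 and 11.48 in WT non-irradiated LT-HSC. In CD169-DTR LT-HSC they were 10.70 and 10.45 after 2 Gy, against 11.45 and 10.91 without irradiation. All 4 irradiated arrays thus lay below all 4 non-irradiated ones. The log2 difference was -0.745 ± 0.198 (SE) in WT LT-HSC, a 1.68-fold lower signal, with an adjusted p of 0.508. In CD169-DTR LT-HSC it was -0.605 ± 0.198 (1.52-fold), with an adjusted p of 0.628. The average of both, -0.675 with a 95% interval of -1.01 to -0.34, had an unadjusted p of 0.00225 and an adjusted p of 0.329 in limma.

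Ldha, the gene of the other subunit, had values that overlapped with irradiation in WT but not in CD169-DTR LT-HSC. It measured 10.96 and 11.06 in WT 2 Gy LT-HSC and 10.95 and 11.02 in WT non-irradiated LT-HSC, which overlap. In CD169-DTR LT-HSC it measured 10.93 and 10.91 after 2 Gy, against 11.27 and 11.21 without irradiation, with no overlap. That difference was -0.32 ± 0.11, with an unadjusted p of 0.0241 and an adjusted p of 0.639 in limma. The Ldha responses of the 2 genotypes were not shown to differ (-0.345 ± 0.155, limma unadjusted p 0.064, adjusted p 0.933). The difference of Ldhb and Ldha values on the same array, which holds only for these 2 probe sets, was -0.14 and -0.27 in WT 2 Gy LT-HSC, against 0.67 and 0.46 in WT non-irradiated LT-HSC. In CD169-DTR LT-HSC it was -0.23 and -0.46 after 2 Gy and 0.18 and -0.30 without irradiation, which overlap. The lactate transporter genes Slc16a1 and Slc16a3 overlapped between the irradiated and non-irradiated arrays in both genotypes.

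**Figure D2:**
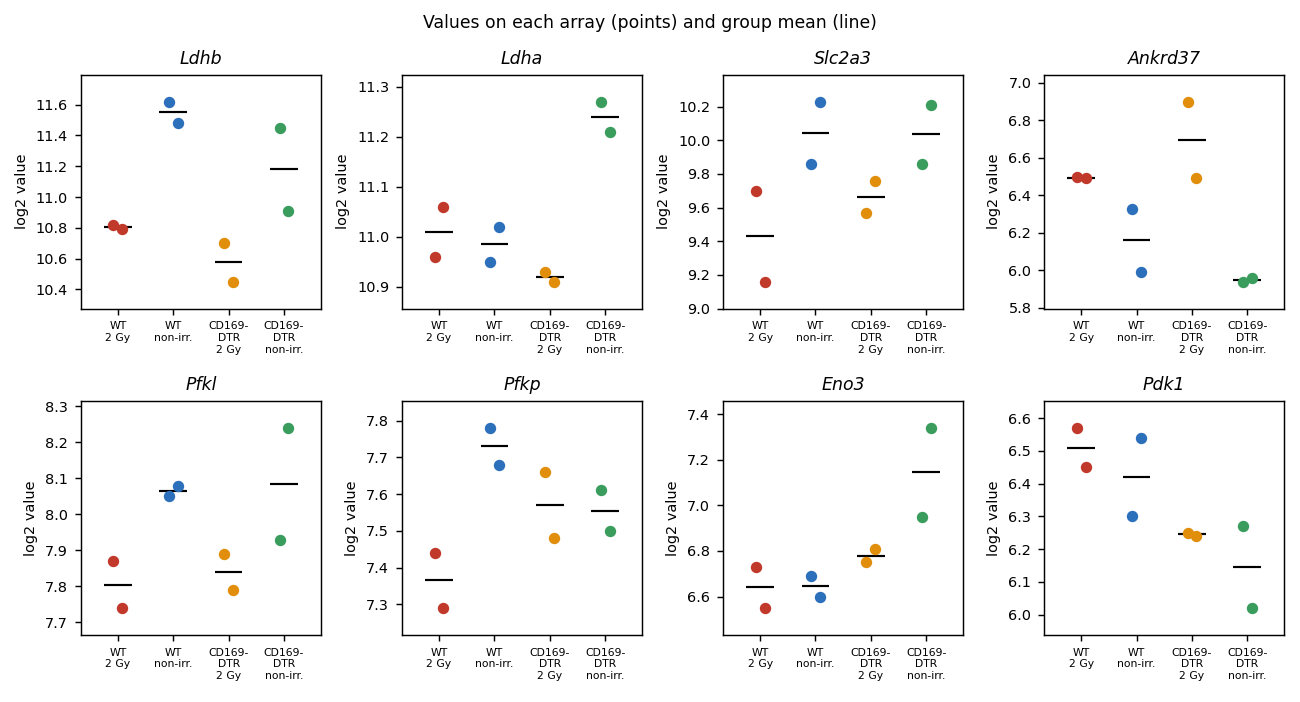
Log2 value on each array (points) and group mean (line) for 8 genes, with WT 2 Gy, WT non-irradiated, CD169-DTR 2 Gy and CD169-DTR non-irradiated LT-HSC from left to right in each panel; the axes do not start at 0 and differ between panels. Ldhb, Slc2a3 and Pfkl are lower and Ankrd37 is higher on all 4 irradiated arrays, while Ldha differs with irradiation in CD169-DTR LT-HSC, where its values are 10.93 and 10.91 against 11.27 and 11.21.

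Genes of glucose uptake and of the first steps of glycolysis had mostly lower values after irradiation, none of which passed the adjusted threshold. Slc2a3, the gene of the glucose transporter GLUT3, measured 9.70 and 9.16 in WT 2 Gy LT-HSC, against 9.86 and 10.23 in WT non-irradiated LT-HSC. In CD169-DTR LT-HSC it measured 9.57 and 9.76 after 2 Gy, against 9.86 and 10.21 without irradiation. All 4 irradiated arrays were again below the 4 others. The averaged log2 difference was -0.493 ± 0.166, with an unadjusted p of 0.0225 and an adjusted p of 0.484 in limma. Slc2a1, the gene of GLUT1, was less even, at 9.38 and 8.44 in WT 2 Gy LT-HSC, against 8.96 and 9.66 in WT non-irradiated LT-HSC.

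Hexokinases trap glucose in the cell, and phosphofructokinase commits it to glycolysis. Hk1 measured 7.37 and 6.99 in WT 2 Gy LT-HSC, against 7.70 and 7.45 in WT non-irradiated LT-HSC, and overlapped in CD169-DTR LT-HSC. Hk2 overlapped in both genotypes. Of the phosphofructokinase genes, Pfkl (liver type) measured 7.87 and 7.74 in WT 2 Gy LT-HSC, against 8.05 and 8.08 in WT non-irradiated LT-HSC, and 7.89 and 7.79 in CD169-DTR 2 Gy LT-HSC, against 7.93 and 8.24 in CD169-DTR non-irradiated LT-HSC. The 4 irradiated arrays lay below the 4 others by an average of -0.252 ± 0.1 (limma adjusted p 0.529). Pfkp (platelet type) measured 7.44 and 7.29 in WT 2 Gy LT-HSC, against 7.78 and 7.68 in WT non-irradiated LT-HSC, a difference of -0.365 ± 0.128 (limma adjusted p 0.582). In CD169-DTR LT-HSC its difference was 0.015, or -0.005 with median centring. Pfkm (muscle type) measured 7.18 and 7.31 in WT 2 Gy LT-HSC, against 7.45 and 7.70 in WT non-irradiated LT-HSC.

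All 6 measured genes of upper glycolysis, from phosphofructokinase to triose phosphate isomerase, had a negative log2 difference in WT LT-HSC, with a median of -0.295, beside 0.075 over all probe sets. In CD169-DTR LT-HSC 4 of the 6 were negative, with a median of -0.208, beside 0.035 over all probe sets. Of all probe sets, 64.4% had a positive difference in WT and 56.8% in CD169-DTR LT-HSC. Aldoc had the largest difference in CD169-DTR LT-HSC, 6.05 and 5.64 after 2 Gy, against 7.30 and 6.98 without irradiation, or -1.295 ± 0.484 (limma adjusted p 0.683). Its WT arrays overlapped, at 6.58 and 5.46 after 2 Gy and 6.98 and 5.79 without irradiation.

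Lower glycolysis, from Gapdh to pyruvate kinase (Pkm), was mixed. In WT LT-HSC 2 of 6 genes had a positive difference, and in CD169-DTR LT-HSC 5 of 6, beside 64.4% and 56.8% of all probe sets. The probe set used for Pgk1, phosphoglycerate kinase, measured 12.01 and 12.25 in CD169-DTR 2 Gy LT-HSC, against 11.76 and 11.91 in CD169-DTR non-irradiated LT-HSC. It overlapped in WT LT-HSC. By its name this probe set lies on another chromosome than X, where Pgk1 lies, so it may measure a copy of the gene. The other Pgk1 probe set, named for chromosome X, had a difference of 0.39 in CD169-DTR LT-HSC, beside 0.295 for the one used. In WT LT-HSC it had 0.015, beside 0.12. Gapdh, Pgam1 and Hif1a have further probe sets shared with other symbols, which were not tested, and near-identical copies of such genes may share signal.

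At the branch into mitochondria, Mpc1, a subunit of the mitochondrial pyruvate carrier, measured 7.19 and 7.30 in WT 2 Gy LT-HSC, against 7.10 and 7.13 in WT non-irradiated LT-HSC. Pdha1, the catalytic subunit that PDK inhibits, overlapped between irradiated and non-irradiated arrays in both genotypes. Pdk2 measured 8.27 and 8.11 in WT 2 Gy LT-HSC, against 8.55 and 8.68 in WT non-irradiated LT-HSC, with a difference of -0.425 ± 0.197 and an unadjusted p of 0.0701. Pdk3 measured 13.02 and 13.15 in CD169-DTR 2 Gy LT-HSC, against 12.63 and 12.94 in CD169-DTR non-irradiated LT-HSC. Pdk4, dim on every array, measured 4.17 and 4.22 in WT 2 Gy LT-HSC, against 4.28 and 4.69 in WT non-irradiated LT-HSC. Pfkfb3 and Pfkfb4, whose enzymes set the level of the activator of phosphofructokinase, overlapped in both genotypes.

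The oxygen-sensing part of the pathway showed small differences in its core. Hif1a measured 9.47 and 9.32 in WT 2 Gy LT-HSC and 9.29 and 9.45 in WT non-irradiated LT-HSC, and 9.52 and 9.34 in CD169-DTR 2 Gy LT-HSC and 9.40 and 9.45 in CD169-DTR non-irradiated LT-HSC. Its 95% interval ran from -0.287 to 0.337 in WT LT-HSC and from -0.307 to 0.317 in CD169-DTR LT-HSC, and the sign of its difference turned with median centring in both. These arrays measure RNA, whereas HIF alpha subunits are controlled mainly by destruction of the protein. Arnt, the stable partner, measured 7.68 and 7.32 in CD169-DTR 2 Gy LT-HSC, against 7.75 and 7.92 in CD169-DTR non-irradiated LT-HSC, and overlapped in WT LT-HSC. Egln1 and Egln3, whose enzymes mark the alpha subunit for destruction, overlapped in CD169-DTR and in WT LT-HSC.

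Among HIF target genes, Ankrd37 was higher on every irradiated array. It measured 6.50 and 6.49 in WT 2 Gy LT-HSC, against 6.33 and 5.99 in WT non-irradiated LT-HSC, and 6.90 and 6.49 in CD169-DTR 2 Gy LT-HSC, against 5.94 and 5.96 in CD169-DTR non-irradiated LT-HSC. Its difference was 0.335 ± 0.179 in WT LT-HSC and 0.745 ± 0.179 in CD169-DTR LT-HSC, a 1.68-fold higher signal (limma adjusted p 0.548). Averaged over both genotypes it was 0.54 ± 0.127, with an unadjusted p of 0.00432 and an adjusted p of 0.377 in limma. Its promoter, shown above, holds the core ACGTG at 2 places, as does a listed promoter of Hk1, which had a difference of -0.395 in WT LT-HSC. A link between the core and these values was not tested.

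Vegfa, the gene of a vessel growth factor, measured 6.43 and 6.53 in WT 2 Gy LT-HSC, against 6.14 and 6.27 in WT non-irradiated LT-HSC, and overlapped in CD169-DTR LT-HSC. Bnip3, whose product marks mitochondria for removal, measured 7.40 and 7.56 in CD169-DTR 2 Gy LT-HSC, against 7.09 and 7.22 in CD169-DTR non-irradiated LT-HSC, and overlapped in WT LT-HSC. Its relative Bnip3l measured 11.14 and 10.98 in WT 2 Gy LT-HSC, against 10.74 and 10.91 in WT non-irradiated LT-HSC. Adm had values of 3.30 and 3.36 in CD169-DTR 2 Gy LT-HSC, against 2.79 and 3.03 in CD169-DTR non-irradiated LT-HSC, all among the dimmest probe sets. Of the 5 HIF target genes, 4 had a positive difference in each genotype, beside 64.4% of all probe sets in WT and 56.8% in CD169-DTR LT-HSC. The split of these 5 genes was not tested against those shares. The median of the 5 was 0.235 in WT LT-HSC, beside 0.075 over all probe sets, and 0.325 in CD169-DTR LT-HSC, beside 0.035. With median centring, the small WT difference of Bnip3 turned from 0.02 to -0.095. These 5 genes do not stand for HIF target genes as a class. Among the further HIF target genes of the wider list described below, more were lower than higher after 2 Gy in each genotype. Over that whole list, which also holds other genes, 22 of 56 (39.3%) had a positive difference in WT LT-HSC and 31 (55.4%) in CD169-DTR LT-HSC. The shares over all probe sets were 64.4% and 56.8%.

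**Figure D3:**
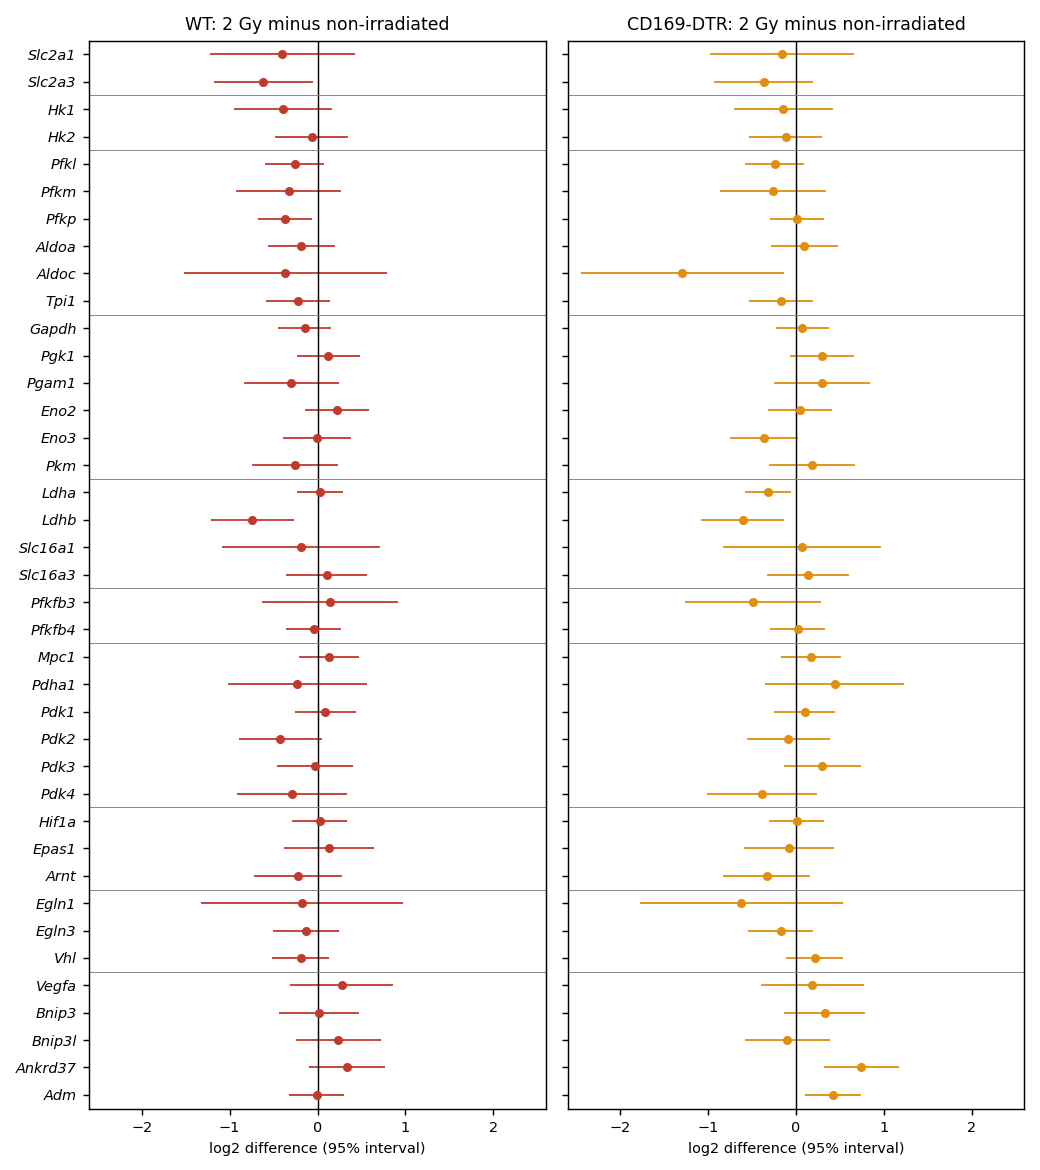
Log2 difference of 2 Gy minus non-irradiated LT-HSC (x axis) for each of the 39 genes (y axis, by role), in WT (left) and CD169-DTR (right), with points for the estimate and lines for its 95% interval from limma. The interval leaves out 0 for 3 genes in WT LT-HSC and for 5 in CD169-DTR LT-HSC, Ldhb being the gene found in both.

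Counted over the 39 genes, 3 had an unadjusted p under 0.05 for irradiation in WT LT-HSC (Slc2a3, Pfkp and Ldhb, all lower), or 7.69%, beside 7.81% of all probe sets, of which 3.21% were lower and 4.6% higher. This count was 1 without WT non-irradiated replicate 2. In CD169-DTR LT-HSC 5 did (Ankrd37 and Adm higher, Aldoc, Ldha and Ldhb lower), or 12.8%, beside 6.77% of all probe sets, of which 3.24% were higher and 3.53% lower. Leaving out CD169-DTR 2 Gy replicate 2 gave a count of 1, and leaving out CD169-DTR non-irradiated replicate 1 gave 3. For the average of both genotypes 5 did (Slc2a3, Pfkl, Aldoc and Ldhb lower, Ankrd37 higher), or 12.8%, beside 9.23% of all probe sets, of which 3.98% were lower and 5.24% higher. It was 3 with any 1 of these 4 arrays left out: WT 2 Gy replicate 2, CD169-DTR 2 Gy replicate 2 and either WT non-irradiated array. Without overlap between all 4 irradiated and all 4 non-irradiated arrays, 3 genes lay lower (Slc2a3, Pfkl and Ldhb), or 7.69%, and 1 higher (Ankrd37), or 2.56%, beside 1.74% lower and 3.76% higher over all probe sets.

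As a group, the genes lay lower in irradiated WT LT-HSC than the bulk of probe sets, which were mostly dimmer than these genes. There 26 of the 39 had a negative difference and 13 a positive one, with a median of -0.145, beside a median of 0.075 and 64.4% positive over all probe sets. With each array centred on its median, which moves the median of all probe sets to -0.04, the split was 31 negative and 8 positive. Without overlap, 12 of the 39 (30.8%) lay lower and 5 (12.8%) higher in WT 2 Gy LT-HSC, beside 13.2% lower and 31.4% higher over all probe sets. In CD169-DTR LT-HSC the genes were split evenly, 19 negative and 20 positive, with a median of 0.005, beside a median of 0.035 and 56.8% positive over all probe sets. There 8 (20.5%) lay lower and 7 (17.9%) higher without overlap, beside 13.4% and 17.8% over all probe sets. These are descriptions, since genes of 1 pathway are not independent of each other. Here and elsewhere, all probe sets were not matched to these genes in brightness. The 25th percentile and the median of all probe sets were higher on both WT 2 Gy arrays than on both WT non-irradiated arrays. Among the WT arrays, the median value of the 39 genes was lowest on 2 Gy replicate 1, which lay far from the rest. On 2 Gy replicate 2 it lay just below the non-irradiated arrays. The part of these limits in the WT values was not tested.

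The neutrophil marker signal moved with the WT comparison, as given above. The mean of the 9 erythroid markers did too, at 6.57 and 7.24 in WT 2 Gy LT-HSC, against 7.86 and 7.35 in WT non-irradiated LT-HSC. Single erythroid markers were mixed, with 2 lower and 2 higher without overlap. Among the lower ones, Car1 averaged 11.74 in WT 2 Gy LT-HSC, against 14.78 in WT non-irradiated LT-HSC. Monocyte and macrophage markers averaged 5.47 and 5.44 in WT 2 Gy LT-HSC, against 5.41 and 5.26 in WT non-irradiated LT-HSC, with Siglec1, Adgre1, Csf1r, C1qa, C1qb and Mrc1 below the median of every array. In the CD169-DTR comparison the mast cell and basophil markers moved, at 8.47 and 7.92 after 2 Gy, against 7.38 and 6.21 without irradiation. Megakaryocyte markers averaged 9.73 and 9.12 in CD169-DTR 2 Gy LT-HSC, against 8.85 and 9.09 in CD169-DTR non-irradiated LT-HSC, and mature lymphoid markers 6.39 and 6.43, against 6.18 and 6.24. The list means of LT-HSC markers, of endothelial and stromal markers and of the genes of cells outside the gate overlapped in both irradiation comparisons, but single markers did not. Of the 10 LT-HSC markers measured, 4 lay higher and 4 lower without overlap in WT 2 Gy LT-HSC, beside 31.4% and 13.2% of all probe sets. In CD169-DTR 2 Gy LT-HSC 2 lay higher and 6 lower, beside 17.8% and 13.4%. Kit, for one, measured 14.36 and 14.33 in WT 2 Gy LT-HSC, against 14.93 and 14.89 in WT non-irradiated LT-HSC, and 14.25 on both CD169-DTR 2 Gy arrays, against 14.77 and 14.66 in CD169-DTR non-irradiated LT-HSC. Cd48 measured 12.95 and 12.14 in WT 2 Gy LT-HSC, against 11.24 and 10.98 in WT non-irradiated LT-HSC, and 13.47 and 13 in CD169-DTR 2 Gy LT-HSC, against 11.05 and 12.54 in CD169-DTR non-irradiated LT-HSC. Flt3 lay lower without overlap after 2 Gy in both genotypes. None of these lists had a marker below the 25th percentile on every array. The part of these signals in the differences of the glycolysis genes was not tested.

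The WT and CD169-DTR irradiation differences share no arrays. Both had the same sign for 24 genes, 9 positive and 15 negative, or 61.5%, beside 57.5% of all probe sets. In the limma test of the difference between the irradiation responses, none of the 39 genes passed the adjusted threshold and none had an unadjusted p under 0.05, beside 5.17% of all probe sets, of which 2.4% were higher and 2.78% lower. The count was 4 without CD169-DTR non-irradiated replicate 2 and 2 when either CD169-DTR 2 Gy array was dropped. It was 1 without WT 2 Gy replicate 2, WT non-irradiated replicate 1 or CD169-DTR non-irradiated replicate 1. The interval of this difference stayed inside a 2-fold change for 26 of the 39 genes, so larger differences remain possible for the other 13. For Ankrd37 the responses of 0.745 in CD169-DTR LT-HSC and 0.335 in WT LT-HSC were not shown to differ.

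The second question was whether LT-HSC differ when CD169+ macrophages are depleted. Without irradiation, Eno3, the gene of muscle-type enolase, measured 6.95 and 7.34 in CD169-DTR LT-HSC, against 6.69 and 6.60 in WT LT-HSC. This was 1.41-fold higher, a log2 difference of 0.5 ± 0.16, with an unadjusted p of 0.018 and an adjusted p of 0.999 in limma. After 2 Gy it measured 6.75 and 6.81 in CD169-DTR LT-HSC, against 6.73 and 6.55 in WT LT-HSC. Each of the 4 CD169-DTR arrays was above all 4 WT arrays, and the averaged difference was 0.32 ± 0.113 (limma adjusted p 0.78). Eno2, the neuronal type, was dim on every array.

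Pdk1 went the other way in its values. It measured 6.25 and 6.24 in CD169-DTR 2 Gy LT-HSC, against 6.57 and 6.45 in WT 2 Gy LT-HSC, and 6.27 and 6.02 in CD169-DTR non-irradiated LT-HSC, against 6.30 and 6.54 in WT non-irradiated LT-HSC. The 4 CD169-DTR arrays lay below the 4 WT arrays by an average of -0.27 ± 0.102, with an unadjusted p of 0.0351 and an adjusted p of 0.784 in limma. Pdk2 measured 8.22 and 8.10 in CD169-DTR non-irradiated LT-HSC, against 8.55 and 8.68 in WT non-irradiated LT-HSC, with a difference of -0.455 ± 0.197. After 2 Gy it overlapped between the genotypes, at 8.35 and 7.79 in CD169-DTR LT-HSC and 8.27 and 8.11 in WT LT-HSC.

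Vhl encodes the protein that brings hydroxylated HIF alpha to the degradation machinery. It measured 5.29 and 5.34 in CD169-DTR non-irradiated LT-HSC, against 5.57 and 5.73 in WT non-irradiated LT-HSC, a difference of -0.335 ± 0.136 (limma adjusted p 0.999). Ldha measured 11.27 and 11.21 in CD169-DTR non-irradiated LT-HSC, against 10.95 and 11.02 in WT non-irradiated LT-HSC, a difference of 0.255 ± 0.11. Ldhb measured 11.45 and 10.91 in CD169-DTR non-irradiated LT-HSC, against 11.62 and 11.48 in WT non-irradiated LT-HSC, and so lay on the other side. After 2 Gy both subunits lay below WT in CD169-DTR LT-HSC without overlap, with Ldha at 10.93 and 10.91, against 10.96 and 11.06, and Ldhb at 10.70 and 10.45, against 10.82 and 10.79.

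In non-irradiated LT-HSC, 2 of the 39 genes had an unadjusted p under 0.05 (Eno3 higher, Vhl lower), or 5.13%, beside 4.38% of all probe sets, of which 2.49% were higher and 1.89% lower. That count was 0 without WT non-irradiated replicate 2, and 1 without WT 2 Gy replicate 1, WT 2 Gy replicate 2 or CD169-DTR non-irradiated replicate 2. Of the 39, 25 had a negative difference and 14 a positive one, with a median of -0.045, beside a median of 0.03 and 57.3% positive over all probe sets. Without overlap 11 (28.2%) lay lower and 5 higher in CD169-DTR LT-HSC, beside 11.9% and 19.1% over all probe sets. The neutrophil markers averaged 9.06 and 9.65 in CD169-DTR non-irradiated LT-HSC, against 7.63 and 8.57 in WT non-irradiated LT-HSC, and megakaryocyte, mature lymphoid, mast cell and LT-HSC marker means were lower, which was not tested against these genes. Without overlap, 1 of 8 megakaryocyte markers lay higher and 1 lower, and 2 of 6 mature lymphoid markers lay higher and 1 lower.

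After 2 Gy, none of the 39 genes had an unadjusted p under 0.05 between CD169-DTR and WT LT-HSC in limma, beside 7.57% of all probe sets, of which 3.86% were higher and 3.71% lower. With CD169-DTR 2 Gy replicate 1 left out 6 did, and with any of the other 3 irradiated arrays left out 1 did. There 22 genes had a positive difference and 17 a negative one, or 27 and 12 with median centring. As deposited, the median was 0.035, beside a median of -0.02 and 45.9% positive over all probe sets. Without overlap 10 lay higher (25.6%) and 7 lower (17.9%) in CD169-DTR LT-HSC, beside 16% and 18.9% over all probe sets. Neutrophil markers averaged 9.63 and 8.62 in CD169-DTR 2 Gy LT-HSC, against 9.80 and 10.38 in WT 2 Gy LT-HSC, with 4 of 11 lower and 0 higher without overlap. Monocyte and macrophage markers averaged 5.32 and 5.14 in CD169-DTR 2 Gy LT-HSC, against 5.47 and 5.44 in WT 2 Gy LT-HSC, with 4 of 9 lower and 0 higher without overlap. The part of both signals in these values was not tested. For the average of both genotype differences, 2 genes had an unadjusted p under 0.05 (Eno3 higher, Pdk1 lower), beside 6.33% of all probe sets, of which 3.75% were higher and 2.58% lower. These 2 were also the genes whose 4 CD169-DTR arrays did not overlap the 4 WT arrays, beside 1.52% higher and 1.09% lower over all probe sets. That count was 5 without CD169-DTR non-irradiated replicate 1 or CD169-DTR 2 Gy replicate 1. Dropping CD169-DTR 2 Gy replicate 2 or WT non-irradiated replicate 2 gave 1.

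**Figure D4:**
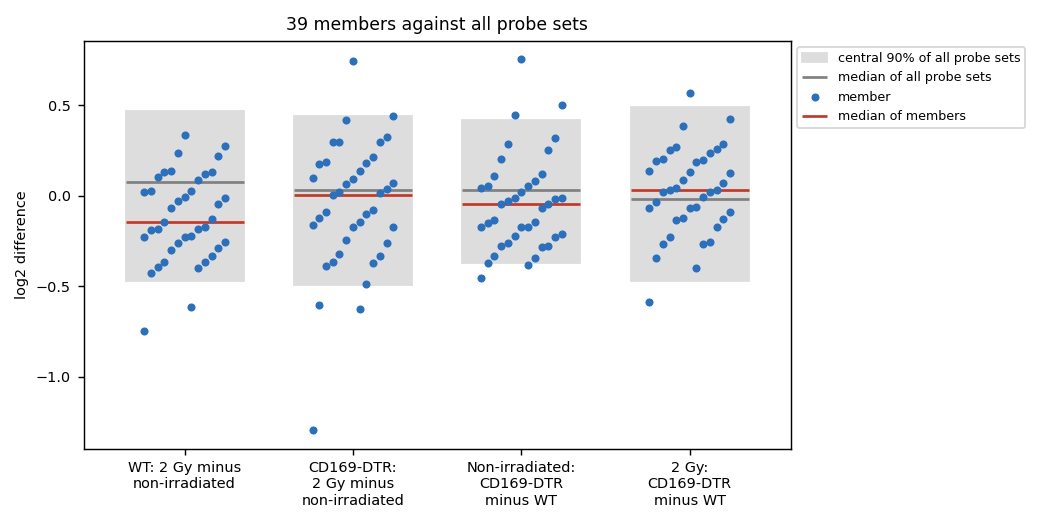
Log2 differences of the 39 genes (blue points) in 4 comparisons, beside the range that holds the middle of all probe sets (grey bars) and both medians (lines). In WT LT-HSC after 2 Gy the median of the genes, -0.145, lies below the median of all probe sets, 0.075, and in the other comparisons the medians lie closer together.

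The 2 irradiation comparisons share arrays with the 2 genotype comparisons, so their values are linked. Intervals of the averaged irradiation difference lay within a 2-fold change for 36 of the 39 genes, all but Aldoc, Ldhb and Egln1. Those of the averaged genotype difference lay within it for 36 as well, all but Aldoc, Slc16a1 and Egln1.

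A wider list of 65 genes of the same pathways, of which 56 were measured, gave a single call. Cxcr4, a chemokine receptor gene that HIF can induce, measured 12.43 and 12.51 in WT 2 Gy LT-HSC, against 14.16 and 14.10 in WT non-irradiated LT-HSC, and fell by 1.66 on the log2 scale (limma adjusted p 0.0397). That call was lost in 13 of 18 alternative settings, leaving out any single array among them, with adjusted p between 0.0125 and 0.524. In CD169-DTR LT-HSC Cxcr4 measured 13.79 and 13.88 after 2 Gy, against 14.17 and 14.00 without irradiation, and the difference of the responses, 1.41 ± 0.168, had an adjusted p of 0.679. No gene of the wider list passed in the other 6 comparisons. In limma 4 of the 56 (7.14%) had an unadjusted p under 0.05 for irradiation in WT LT-HSC, beside 7.81% of all probe sets, 5 (8.93%) in CD169-DTR LT-HSC, beside 6.77%, and 8 (14.3%) for the average, beside 9.23%. For depletion, 2 (3.57%) did so without irradiation, beside 4.38%, 5 (8.93%) after 2 Gy, beside 7.57%, and 4 (7.14%) for the average, beside 6.33%. For the difference of the responses 5 (8.93%) did, beside 5.17%. Most of these shares lay near those of all probe sets.

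Of the wider list, Ak4, a mitochondrial adenylate kinase gene, measured 6.65 and 6.87 in WT 2 Gy LT-HSC, against 7.33 and 7.70 in WT non-irradiated LT-HSC, and 6.69 and 7.12 in CD169-DTR 2 Gy LT-HSC, against 8.07 and 7.33 in CD169-DTR non-irradiated LT-HSC. Ak4 was listed among the HIF target genes, and its 4 irradiated arrays lay below the 4 others (limma adjusted p 0.401). Meis1, which drives Hif1a in mouse HSC, measured 12.99 and 12.88 in WT 2 Gy LT-HSC, against 13.32 and 13.25 in WT non-irradiated LT-HSC, and 12.76 and 12.14 in CD169-DTR 2 Gy LT-HSC, against 13.29 and 12.97 in CD169-DTR non-irradiated LT-HSC. Here the highest irradiated array, 12.99, lay just above the lowest non-irradiated one, 12.97 (limma adjusted p 0.449). Hif1an, the gene of the asparagine hydroxylase that blocks HIF activity, measured 6.48 and 6.07 in CD169-DTR 2 Gy LT-HSC, against 5.09 and 5.26 in CD169-DTR non-irradiated LT-HSC (limma adjusted p 0.62). Bhlhe40, a hypoxia-induced repressor gene, measured 4.25 and 4.32 in CD169-DTR 2 Gy LT-HSC, against 5.42 and 4.83 in WT 2 Gy LT-HSC (limma adjusted p 0.619), and against 5.04 and 5.00 in CD169-DTR non-irradiated LT-HSC (limma adjusted p 0.621). It was dim, below the median of all probe sets on both CD169-DTR 2 Gy arrays (4.80 and 4.85) and on WT 2 Gy replicate 2 (4.85).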

How the data were processed

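Expression was measured on 8 arrays, 2 per group. The authors deposited RMA values, 1 for each probe set on each array, per the submitters' processing notes. These deposited values were taken as log2, as RMA usually gives, because the base is not stated. The array labels name a whole-transcript kit. The values were used as deposited, and the number of arrays limits the precision.

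Of 40161 probe sets, 30294 carried 1 gene symbol and were tested, 2145 carried several and 7722 none. Symbols were updated through Entrez IDs to RefSeq (GRCm38.p6), which changed 827. A model of 4 group means was fitted with limma 3.58.1 in R 4.3.3 (lmFit and eBayes, two-sided, Benjamini-Hochberg over all 30294), with 7 comparisons. The procedure was tested on simulated data. P-values measure the spread between these samples, which are not stated to be separate animals. The members and lists were chosen with earlier results of these data known. Genes were spelled out by array where an unadjusted p was under 0.05 and groups did not overlap, with isozymes and other genes of the same role beside them. Of the wider list, the genes that passed were named, and otherwise a choice of the 3 with the smallest p. Alternatives tried were another scaling, filters, array weights, a replicate block and each array left out. Same-numbered arrays showed no strong shared shift (correlations of -0.09 to 0.16 between their deviations). These correlations cannot tell whether same-numbered arrays came from the same experiment.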

Additional observations from a re-analysis of the deposited data

Results flagged for a closer look

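Vhl lay lower in both WT 2 Gy arrays (5.42 and 5.5) than in both WT non-irradiated arrays (5.57 and 5.73), and higher in both CD169-DTR 2 Gy arrays (5.4 and 5.66) than in both CD169-DTR non-irradiated arrays (5.29 and 5.34), so the genotypes moved in opposite ways. The difference of the responses, CD169-DTR minus WT, was 0.405 ± 0.192 log2, with an adjusted p of 0.942 in limma, and did not pass.

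For 3 genes the genotype difference had opposite directions at the 2 doses, with no overlap at either. Pfkp was higher in CD169-DTR than in WT LT-HSC after 2 Gy and lower without irradiation, and the change in the difference was 0.38 ± 0.181 (limma adjusted p 0.943). Ldha was lower after 2 Gy and higher without irradiation, with a change of -0.345 ± 0.155 (limma adjusted p 0.933). Adm was higher after 2 Gy and lower without irradiation, with a change of 0.43 ± 0.187 (limma adjusted p 0.933), on values that were all dim.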

How the results depend on the processing

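In all 18 alternatives (17 for the averages and the difference of responses, for which the fit to only the groups compared cannot be made), none of the 39 genes passed the adjusted threshold in any of the 7 comparisons, and the count with the replicate number as a block was 0 in each. With that replicate block the Cxcr4 difference in WT LT-HSC had an adjusted p of 0.194. The median difference of the genes for irradiation in WT LT-HSC ranged from -0.26 to -0.05. The differences with an unadjusted p under 0.05 and no overlap between groups kept their direction in every alternative that gave a value (the filter on dim probe sets left out Adm). Leaving out an array could not turn them, since their groups do not overlap, and most other settings could not either. Their kept direction is therefore no independent check. Smaller differences turned with median centring, among them those of Ldha (0.025 to -0.09), Hif1a (0.025 to -0.09), Bnip3 (0.02 to -0.095) and Pdk1 (0.09 to -0.025) for irradiation in WT LT-HSC, and of Pfkp (0.015 to -0.005) and Hif1a (0.005 to -0.015) in CD169-DTR LT-HSC. The adjusted p of Ldhb for irradiation averaged over both genotypes ranged from 0.23 to 0.639, and that of Ankrd37 from 0.3 to 0.633. The count of genes with an unadjusted p under 0.05 ranged from 1 to 5 for irradiation in WT LT-HSC (3 as reported), from 1 to 7 in CD169-DTR LT-HSC (5), from 3 to 7 for the average (5), from 0 to 4 for depletion without irradiation (2), from 0 to 6 after 2 Gy (0), from 1 to 5 for its average (2) and from 0 to 4 for the difference of responses (0). A fit without 1 array assumes that the remaining array of that group varies like those of the other groups. Leaving out both far 2 Gy arrays was chosen after seeing the data. With median centring the split of positive and negative differences for the difference of responses was 29 and 10, beside 25 and 14 as deposited. Over all probe sets, 42.1% were positive as deposited. Dim probe sets such as Adm may lie at background.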
